A study of Mus musculus with 31 samples.

Results

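Of the SOX genes other than Sox2 and Sox15, 10 were read in the accessible chromatin of unmodified fibroblasts. They are 10 mouse genes of 4 SOX groups: Sox4, Sox11 and Sox12 of group C, Sox5 and Sox6 of group D, Sox8, Sox9 and Sox10 of group E, and Sox17 and Sox18 of group F. They were chosen by name, and all 10 were found among the 21938 protein-coding genes of the annotation. For each gene, ATAC-seq peaks were collected within 1 kb of any of its transcription start sites (TSSs), in the gene body and within 100 kb of the gene, which gave 154 of the 63456 peaks of the library.

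The data come from 1 library of the parental NIH-3T3 line, an established line of mouse embryonic fibroblasts, without a TF transgene. Its labels list no doxycycline, whereas the methods give 500 ng/ml for 48 h for NIH-3T3 cells in ATAC-seq without setting the parental line apart. ATAC-seq tags DNA that the transposase Tn5 can reach, here in 50000 cells, so that fragments pile up over accessible sites. The remaining 30 samples of the series, which overexpress one of 13 TFs or carry rtTA3G only, were not analysed here. With 1 library there are no replicates, so that no difference below could be tested against replicate error and no p-value is given. Each peak carries a fold enrichment and a −log10 q. The fold enrichment is the fragment pileup at the summit plus 1, over the local expected pileup plus 1. Fragments at a summit were recovered from these values and have exact Poisson 95% intervals that cover counting error only. The median peak had 29 fragments at its summit, the lowest had 10, and the peak caller expected 2.81 by background, so that a site under fewer fragments than this minimum could be missing from the list. The label of the cells was checked by marker genes. Peaks no more than 1 kb from a TSS were present at 12 of 12 fibroblast markers, against 53.7% of all protein-coding genes, and at 1 of 4 epithelial (Krt8), 2 of 4 endothelial (Cdh5 and Pecam1), 1 of 4 blood (Spi1), 0 of 4 neuronal and 0 of 4 cartilage markers. The share of endothelial markers was close to that of all genes, and the promoter peak of Cdh5, with a fold enrichment of 12.8, was higher than those of the 12 fibroblast markers, of which Fn1 had the highest at 10.5.

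SOX proteins bind DNA through an HMG box, a domain that inserts into the minor groove and bends the helix at a short core sequence. Group C proteins are activators of neural and mesenchymal progenitors. Group D proteins have no activation domain of their own and act with SOX9 on cartilage genes. Group E proteins act in cartilage, testis, neural crest and glia, and group F proteins in endoderm, blood vessels and lymphatics. Accessibility at a gene's TSS is a property of its chromatin and is not a measure of its RNA.

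The promoter sequences below carry the main contrast among the short members, since all 4 are rich in CpG dinucleotides and only Sox4 and Sox12 lay in a peak. They are the 250 bases before the RefSeq start (GRCm38.p6), read 5′ to 3′ on the strand of the gene, and capitals mark CG. The promoter table held 6 of the 10 genes, with 11 promoters, and did not hold Sox9, Sox10, Sox17 or Sox18.
Sox4 promoter, chr13:28953700-28953949, minus strand: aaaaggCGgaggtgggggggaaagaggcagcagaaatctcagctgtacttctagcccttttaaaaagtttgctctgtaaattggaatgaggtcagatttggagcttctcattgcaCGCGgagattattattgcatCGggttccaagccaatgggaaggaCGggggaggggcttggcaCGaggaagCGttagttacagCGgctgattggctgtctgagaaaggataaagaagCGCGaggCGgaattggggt
Sox12 promoter, chr2:152398047-152398296, minus strand: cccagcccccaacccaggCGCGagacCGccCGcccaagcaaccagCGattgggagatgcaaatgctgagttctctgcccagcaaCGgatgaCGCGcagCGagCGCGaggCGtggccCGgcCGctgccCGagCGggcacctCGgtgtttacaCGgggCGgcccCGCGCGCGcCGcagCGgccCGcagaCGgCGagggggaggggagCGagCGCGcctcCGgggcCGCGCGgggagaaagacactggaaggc
Sox11 promoter, chr12:27342719-27342968, minus strand: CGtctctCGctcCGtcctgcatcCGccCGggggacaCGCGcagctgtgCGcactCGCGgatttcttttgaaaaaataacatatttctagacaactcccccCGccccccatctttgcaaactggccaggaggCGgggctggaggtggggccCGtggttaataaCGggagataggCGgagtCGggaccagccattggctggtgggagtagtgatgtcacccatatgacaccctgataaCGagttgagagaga
Sox8 promoter, chr17:25570687-25570936, minus strand: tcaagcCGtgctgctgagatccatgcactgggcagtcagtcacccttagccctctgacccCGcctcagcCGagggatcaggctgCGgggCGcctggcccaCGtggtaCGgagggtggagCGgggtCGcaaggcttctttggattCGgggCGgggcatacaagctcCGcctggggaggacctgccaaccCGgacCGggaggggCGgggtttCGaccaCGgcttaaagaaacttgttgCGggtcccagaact
Sox12 had 35 CG in these 250 bases, Sox8 had 18, Sox11 had 17 and Sox4 had 11, against a median of 6 (quartiles 2 and 16) over the 32851 promoters of the table. Sox4, the poorest of the 4, was in a peak, and Sox11 and Sox8 were not. The RefSeq start of Sox4 lies 14 bp from the nearest annotated TSS used for the peaks, and that of Sox11 lies 144 bp from it.

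The next promoter belongs to the only Sox6 TSS at a peak, which lies inside the gene. Capitals mark the SOX core, CTTTGT or CATTGT on either strand, which appears here 3 times.
Sox6 promoter, chr7:115824711-115824960, minus strand: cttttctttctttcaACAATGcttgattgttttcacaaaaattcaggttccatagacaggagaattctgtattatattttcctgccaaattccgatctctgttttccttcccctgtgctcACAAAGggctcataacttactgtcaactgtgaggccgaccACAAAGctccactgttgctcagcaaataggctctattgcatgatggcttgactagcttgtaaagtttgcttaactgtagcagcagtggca
At least 1 such core was present in 25.2% of all promoters of the table, and 3 or more in 0.493%. A second Sox6 promoter, 43.7 kb into the gene and without a peak, held 4. This promoter was singled out after its letters were seen, and a match is a description of sequence only. None of the 11 member promoters held TGACTCA, the consensus of the AP-1 factors, in these 250 bases (0 of 11), against 4.46% of all promoters. The 11 do not include Sox9, whose promoter peak held TGACTCA within 50 bp of a summit 44 bp upstream of the TSS. Several of the 11 belong to Sox6, and a Sox6 one, chr7:115801610-115801859, lies 23101 bp from the nearest annotated TSS. With so few promoters and so low a share, 0 of 11 does not set the members apart.

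The last sequences are 50 bp to either side of the summits of the 3 gene-body peaks of highest fold enrichment in Sox5 and in Sox6, in that order, all in introns. Capitals mark TGACTCA and the SOX core on either strand.
Sox5 intron, chr6:144075046-144075146, minus strand: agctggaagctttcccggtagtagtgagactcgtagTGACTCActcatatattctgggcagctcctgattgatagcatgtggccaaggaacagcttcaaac
Sox5 intron, chr6:144166231-144166331, minus strand: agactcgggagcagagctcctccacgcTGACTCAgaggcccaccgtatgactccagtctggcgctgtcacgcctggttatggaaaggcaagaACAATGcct
Sox5 intron, chr6:143868226-143868326, minus strand: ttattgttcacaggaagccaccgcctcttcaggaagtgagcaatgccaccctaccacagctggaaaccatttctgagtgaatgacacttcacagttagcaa
Sox6 intron, chr7:115936992-115937092, minus strand: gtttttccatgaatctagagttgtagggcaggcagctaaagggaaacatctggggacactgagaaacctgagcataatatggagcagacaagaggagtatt
Sox6 intron, chr7:115500350-115500450, minus strand: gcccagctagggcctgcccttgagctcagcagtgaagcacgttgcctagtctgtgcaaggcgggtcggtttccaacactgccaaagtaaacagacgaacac
Sox6 intron, chr7:115669783-115669883, minus strand: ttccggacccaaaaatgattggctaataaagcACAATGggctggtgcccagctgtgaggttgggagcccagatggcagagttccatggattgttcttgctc
The first and the second Sox5 window each held TGACTCA, and none of the 3 Sox6 windows did.

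Of the 10 genes, 4 had a peak within 1 kb of a TSS, namely Sox4, Sox6, Sox9 and Sox12. The same was true of 53.7% of all protein-coding genes, so that the count of members by itself lies close to the background. The split followed no SOX group. Among the listed genes, such a peak was found at 2 of 3 in group C and 1 of 2 in group D. In groups E and F it was found at 1 of 3 and 0 of 2. A peak lay in the gene body of 6 members (the same 4, Sox5 and Sox10), against 63.2% of all genes, and within 100 kb of 9 members, against 88.2% of all genes. Around a protein-coding gene the median number of peaks within 100 kb was 10 (quartiles 4 and 15), while the members ranged from 0 for Sox11 to 48 for Sox5.

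**Figure D1:**
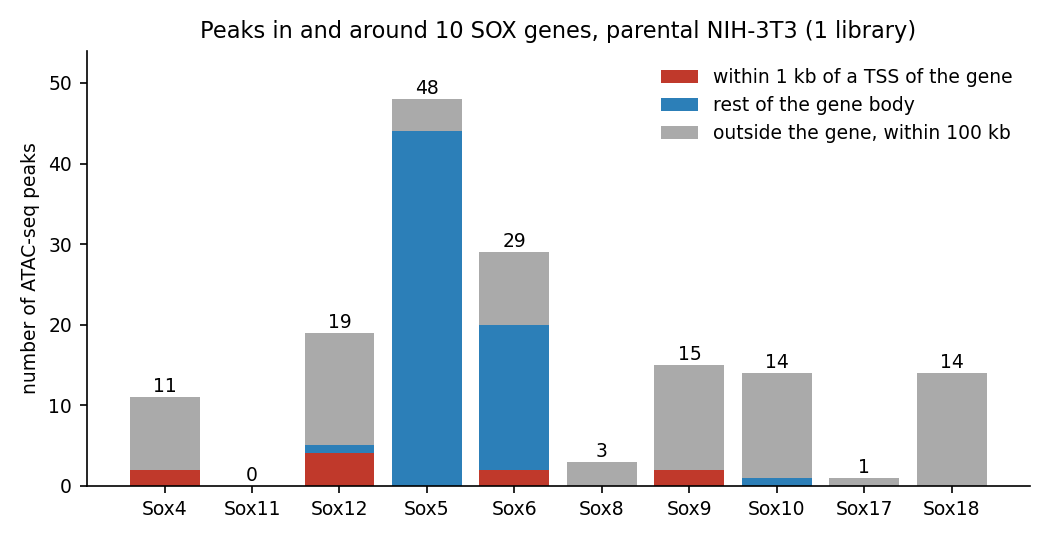
Number of ATAC-seq peaks (y axis) for each of the 10 SOX genes (x axis) in 1 library, stacked by position, with the total above each bar. Sox5 had 48 and Sox6 had 29, mostly in the gene body, while Sox11 had 0 and Sox17 had 1.

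The members without a promoter peak were mostly genes with CpG-rich TSSs. A TSS was called CpG-rich when the 500 bp to either side had an observed to expected CpG ratio of at least 0.6 and a GC content of at least 50%. By this measure 9 members, all but Sox10, had a CpG-rich TSS, and 4 of these 9 had a peak within 1 kb of a TSS. Over all protein-coding genes with a CpG-rich TSS the share was 82.0%, and over the other genes it was 24.5%. The 5 CpG-rich members without a promoter peak were Sox5, Sox8, Sox11, Sox17 and Sox18. The CpG-rich TSSs of Sox5, with ratios of 0.73 and 0.77, start no protein-coding transcript. Its TSSs of protein-coding transcripts had ratios of 0.30 to 0.37. The CpG-rich TSS of Sox6 likewise starts no protein-coding transcript. The shares over all genes also counted the TSSs of every transcript, coding or not. Counted by position, the members had 45 TSSs, of which 5 were within 1 kb of a peak. Of these 45, 13 were CpG-rich, and 4 of the 13 had a peak, at Sox4, Sox9 and Sox12. These counts are per TSS position, and the shares of 82.0% and 24.5% are per gene, so that they cannot be compared. A share over all annotated TSS positions is not given here. The Sox6 TSS with a peak was CpG-poor, with a ratio of 0.34, and the CpG-rich TSS of Sox6 lay 5725 bp from the nearest peak.

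**Figure D2:**
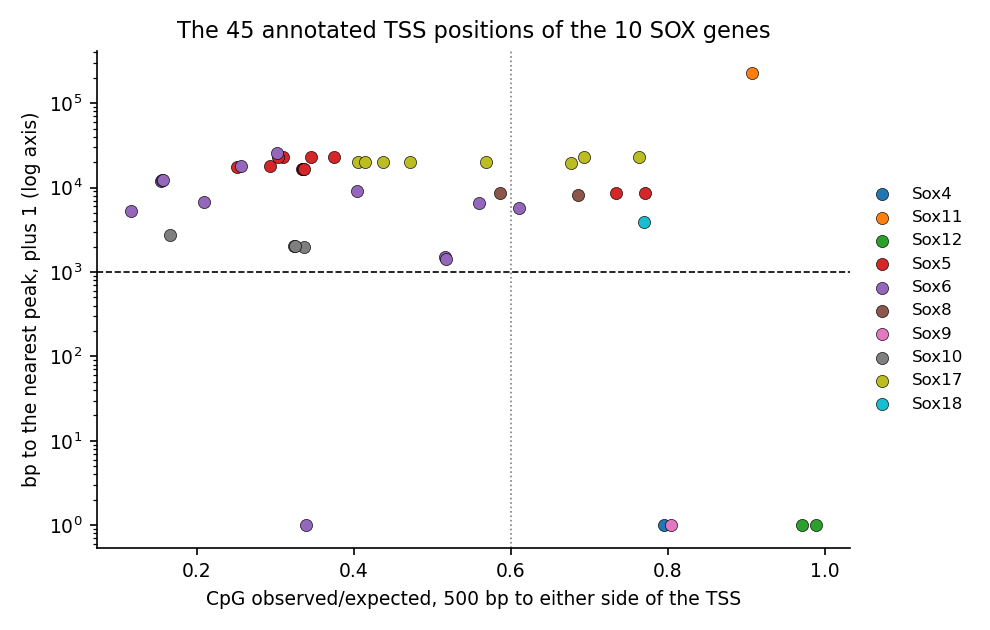
Each point is 1 of the 45 annotated TSS positions of the 10 SOX genes, with its observed to expected CpG ratio (x axis) and the distance in bp to the nearest peak plus 1 (y axis, log scale). The dashed line marks 1 kb and the dotted line a ratio of 0.6; points at the bottom overlap a peak, and Sox11 has a ratio of 0.91 with its nearest peak 225571 bp away.

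Where the promoters were open, the median fold enrichment of their peaks, which belong to 4 genes, was modest. The 10 promoter peaks of the members had a median fold enrichment of 5.78, against 8.03 over the 16264 peaks within 1 kb of a TSS, which is 0.721 of that median. Of the 10, 9 were below the median of all promoter peaks. In fragments at the summit the medians were 38 and 49. The highest peaks of Sox9 (90 fragments) and Sox12 (79) exceeded the upper quartile of 77 over all promoter peaks. All other member promoter peaks had fewer fragments than that quartile.

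Sox9, which directs cartilage formation and testis development, had the highest of the promoter peaks. It is annotated at chr11:112782224-112787760 on the plus strand. The peak at chr11:112782010-112783048 overlapped its TSS and had 90 fragments (72.4 to 111), a −log10 q of 49.4 and a fold enrichment of 8.13. Its summit lay 44 bp upstream of the TSS, and the 50 bp to either side of it held TGACTCA. The second promoter peak, chr11:112781260-112781682, was lower, with a fold enrichment of 3.68 and 40 fragments. It lay 542 bp from the Sox9 TSS and 294 bp from a TSS of the non-coding gene BC006965. No peak lay in the gene body beyond the promoter, and the nearest peak outside was 297 bp past the gene end (fold enrichment 3.21). Within 100 kb Sox9 had 15 peaks, a number that 77.9% of protein-coding genes did not exceed, and all 15 had Sox9 as the nearest coding TSS. The highest, chr11:112824182-112824713, lay 36422 bp downstream, within 1 kb of the TSS of the non-coding gene 4933434M16Rik, with a fold enrichment of 12.4 and 96 fragments. It held both TGACTCA and a SOX core.

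Sox12, a group C gene, had the most promoter peaks. It lies at chr2:152393611-152398063 on the minus strand. The peak over its TSS, chr2:152397785-152398292, had a fold enrichment of 5.32 and 61 fragments (46.7 to 78.4). A higher peak 406 bp upstream, chr2:152398469-152399092, had a fold enrichment of 6.92 and 79 fragments (62.5 to 98.5). The exon of the gene carried 3 further peaks, at chr2:152397286-152397509 (fold enrichment 3.12), chr2:152396858-152397169 (2.53) and chr2:152396278-152396525 (3.33), the last of which was 1521 bp from the TSS and so just outside the 1 kb limit. Sox12 thus had a row of small peaks along the transcribed part next to the open promoter. Of 19 peaks within 100 kb, 5 lay at TSSs of other genes and 7 had Sox12 as the nearest coding TSS. The highest, chr2:152405901-152406662, was 7838 bp upstream, away from any TSS, with a fold enrichment of 15.9 and 110 fragments. Beyond the promoter peaks, the nearest peak outside the gene was 1942 bp downstream, with a fold enrichment of 7.07.

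Sox4, a group C gene of progenitor cells and of many tumours, lies at chr13:28948919-28953713 on the minus strand. Its main promoter peak, chr13:28953155-28953983, had 40 fragments (28.6 to 54.5), a −log10 q of 20.2 and a fold enrichment of 6.82, with the summit 42 bp upstream of the TSS. A small peak in the exon, chr13:28952672-28952873, had a fold enrichment of 3.20 and 17 fragments. The surrounding 100 kb held few strong sites. Of 11 peaks, all with Sox4 as the nearest coding TSS, the highest, chr13:28917685-28918283, was 30636 bp downstream with a fold enrichment of 8.94, and the nearest was 1428 bp downstream with 3.70.

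Sox11, the third gene of group C, stood at the other end. It lies at chr12:27334264-27342574 on the minus strand, and it had 0 peaks within 100 kb, as did 11.8% of protein-coding genes. The peak nearest to the gene was 217261 bp away, with a fold enrichment of 3.41. From its TSS the nearest peak was 225571 bp away, and 91.9% of genes had a peak as near or nearer to their start. Its TSS had a CpG ratio of 0.91, second only to those of Sox12 among the members.

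**Figure D3:**
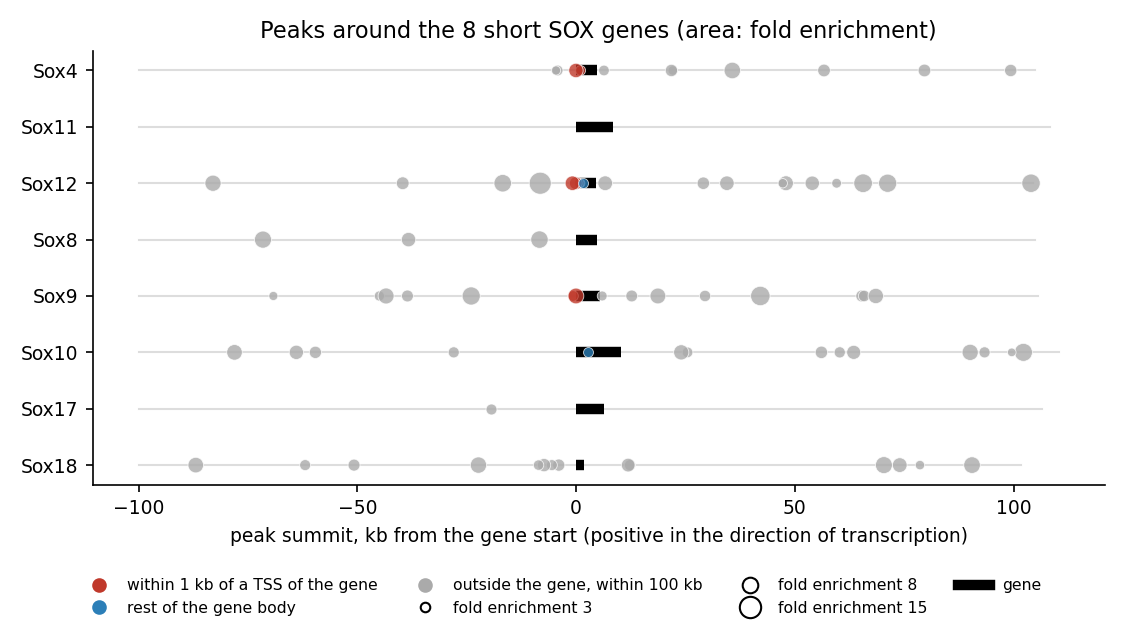
Peaks around the 8 short SOX genes in 1 library, placed by the distance of the summit from the gene start in kb (x axis, positive in the direction of transcription), with 1 row per gene (black bar: gene) and the area of each point proportional to fold enrichment. Sox4, Sox9 and Sox12 have red promoter peaks, Sox11 has no point, and the largest point is the Sox12 peak 7838 bp upstream.

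The genes of group E other than Sox9 had no promoter peak. Sox8, a gene of glia and testis at chr17:25565892-25570686 on the minus strand, had 3 peaks within 100 kb, all upstream, and none had Sox8 as the nearest coding TSS. The nearest was also the highest, with a fold enrichment of 9.91, 8198 bp upstream at chr17:25578884-25579505, and it lay at a TSS of Lmf1. Sox10, which directs neural crest, melanocyte and glial fate, lies at chr15:79154908-79165240 on the minus strand. It had 1 peak in an intron, chr15:79162293-79162471, with a fold enrichment of 3.24 and 23 fragments (14.6 to 34.5), 2003 bp from the nearest TSS. Of its 13 peaks outside the gene, 8 lay at TSSs of other genes, the highest of them near Ankrd54 with a fold enrichment of 10.6, and the nearest, 13188 bp downstream, near 1700088E04Rik with 7.59. Only 2 of the 14 peaks around Sox10 had it as the nearest coding TSS.

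Neither listed gene of group F had a peak in its body. Sox17, a gene of endoderm and arterial endothelium at chr1:4490931-4497354 on the minus strand, had 1 peak within 100 kb, 19326 bp upstream at chr1:4516680-4516794, with a fold enrichment of 3.94 and 14 fragments (7.65 to 23.5). Sox18, a gene of lymphatic and vascular endothelium at chr2:181669836-181671640 on the minus strand, had 14 peaks within 100 kb. Of these, 6 lay at TSSs of other genes, and 1 had Sox18 as the nearest coding TSS. That one, chr2:181675545-181675767, was the nearest, 3905 bp upstream, with a fold enrichment of 4.88. The highest, near Prpf6, had 9.41. The number of peaks around Sox10 and Sox18 was thus above the median of 10, but most of these peaks lay nearer to the TSSs of other genes.

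The listed genes of group D differed from the rest in length. Sox5 and Sox6 span 954 kb and 568 kb. In and within 100 kb of them lay 77 of the 154 peaks, or 50%. Of these, 44 lay in the body of Sox5 and 20 in that of Sox6. Sox5, at chr6:143828425-144781977 on the minus strand, had 44 peaks in its body and none within 1 kb of any of its 12 TSS positions, the nearest being 8554 bp away. This corresponds to 46.1 peaks per Mb (33.5 to 61.9, counting error only), while the 567 protein-coding genes over 300 kb had a median of 11.5 per Mb (quartiles 2.60 and 27.8). Of these 567, 50 were denser, and 4 had more peaks, Gm20388, Fgfr2, Gm37240 and Cdk14, which were named after their values were seen and all had a promoter peak. Among the 567, 56.8% had no peak within 1 kb of a TSS. Those 322 genes had a median of 2 peaks and 3.27 per Mb, and 0 of them had more peaks than Sox5 and 9 were denser.

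The Sox5 peaks were also high. Their median fold enrichment was 7.96, against 5.54 over the 47192 peaks more than 1 kb from any TSS (distal peaks), and 34 of the 44 exceeded the latter. Of the 44, 40 had their summit in an intron and 4 in an exon of some annotated transcript, 1 lay within 1 kb of a TSS of any gene, and the median gap between neighbours was 12.9 kb, with a longest gap of 135 kb. The 3 highest were chr6:144074742-144075333 with a fold enrichment of 16.6 and 76 fragments (59.9 to 95.1), chr6:144165787-144166772 with 15.7 and 110 fragments (90.4 to 133), and chr6:143868048-143868465 with 15.5 and 71 fragments (55.5 to 89.6). Peaks were spread over both parts of the gene. The 572 kb from the gene start to the first TSS of a protein-coding transcript held 21 peaks (36.7 per Mb, 22.7 to 56.1), and the 381 kb from there to the gene end held 23 (60.3 per Mb, 38.3 to 90.5). These intervals overlap. Outside the gene Sox5 had 4 peaks within 100 kb, the nearest 35958 bp downstream (fold enrichment 6.04) and the highest 52607 bp upstream (8.67), and all 48 peaks had Sox5 as the nearest coding TSS.

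Along the longest protein-coding transcript of Sox5, with 14 exons over 381 kb, the third intron of 75.1 kb held 8 peaks (107 per Mb) and the second intron of 38.3 kb held 4 (104 per Mb). The eighth intron of 67.2 kb held 1, which had a fold enrichment of 15.4. These introns were picked after their counts were seen. None of the 23 peaks in this transcript had its summit in one of its exons (0 of 23).

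Sox6, at chr7:115470872-116038796 on the minus strand, had 20 peaks in its body, or 35.2 per Mb (21.5 to 54.4). Of the 567 long genes 73 had more peaks and 99 were denser. Its only TSS position at a peak, of 13, was internal, 214 kb into the gene. The peak chr7:115824690-115825033 overlapped that TSS with a fold enrichment of 6.25 and 29 fragments (19.4 to 41.6), and chr7:115825355-115826013 lay 645 bp away with 7.24 and 34 fragments (23.5 to 47.5). At the annotated gene start the nearest peak was 1442 bp away, just outside the 1 kb limit and at a TSS of 1110004F10Rik, with a fold enrichment of 6.04. Sox6 thus counted among the genes with a promoter peak through 1 of 13 TSS positions. The highest gene-body peaks were chr7:115936880-115937272 with a fold enrichment of 16.8 and 63 fragments, chr7:115500095-115500583 with 12.0 and 47, and chr7:115669121-115670103 with 11.8 and 44. Outside the gene the highest peak, chr7:116100079-116100666, 61283 bp upstream and nearest to 1110004F10Rik, had 19.8 and 89 fragments.

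**Figure D4:**
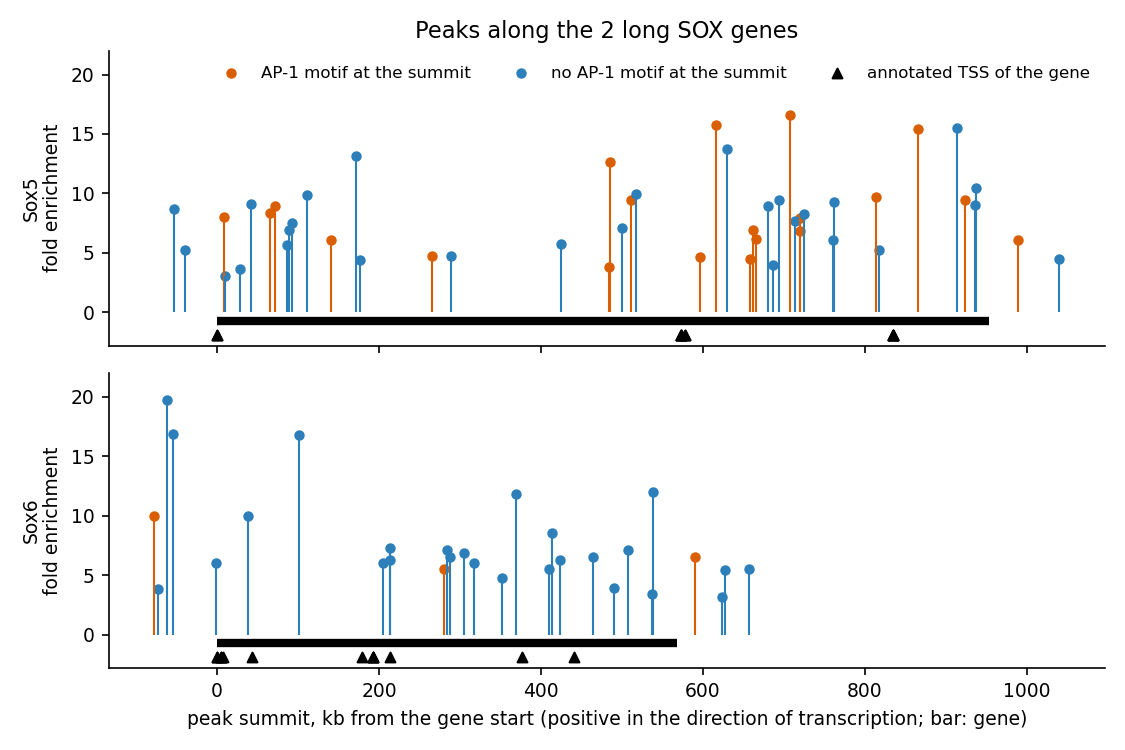
Fold enrichment (y axis) of each peak in and within 100 kb of Sox5 (top) and Sox6 (bottom) by the distance of its summit from the gene start in kb (x axis, positive in the direction of transcription), in 1 library. Orange marks peaks with the AP-1 consensus within 50 bp of the summit (20 of 48 for Sox5 and 3 of 29 for Sox6), triangles mark TSSs and the black bar the gene.

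The sequence under the peaks was compared between the 2 long genes. TGACTCA was within 50 bp of the summit of 20 of 47 distal peaks in and around Sox5, or 42.6% (exact binomial 95% interval 28.3 to 57.8%), and of 3 of 25 around Sox6, or 12.0% (2.55 to 31.2%). Over all 47192 distal peaks the share was 26.4%, and in windows 500 bp to either side of these it was 1.86%. Neighbouring peaks share a locus and are not replicates, so that this difference within 1 library was not tested, and the intervals of the 2 genes overlap. The SOX core showed the opposite order, with 7 of 47 (14.9%, 6.20 to 28.3%) around Sox5 and 7 of 25 (28.0%, 12.1 to 49.4%) around Sox6, and these intervals overlap too. Of the 78 genes over 300 kb with 20 or more peaks in the body, 0 had a larger share of TGACTCA than the 43.2% of Sox5, although 42.9% in Pde1c and 42.3% in Inpp4b were close, and 1, Nrg1, had a higher median fold enrichment (9.26). All 3 were named after their values were seen. For Sox6 the share in the gene body was 5.0%, and 75 of the 78 genes had a larger one. Sox6 had 20 such peaks, the smallest number that entered this set, so that a single peak weighs much in its share.

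**Figure D5:**
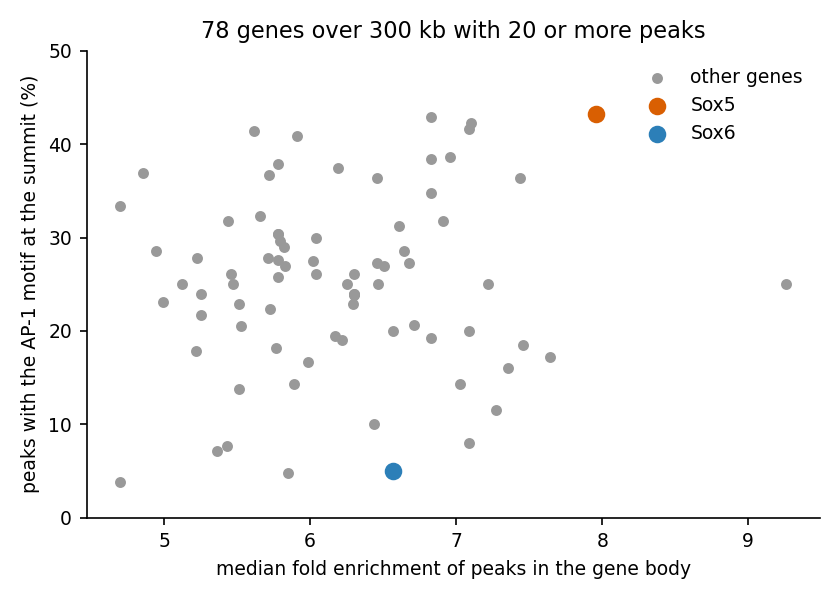
Each point is 1 of 78 protein-coding genes over 300 kb with 20 or more peaks in the body, with the median fold enrichment of these peaks (x axis) and the percentage with the AP-1 consensus at the summit (y axis). Sox5 lies at 7.96 and 43.2%, Sox6 at 6.57 and 5.0%, and the median gene at 6.11 and 25.4%.

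Over all members together both shares were close to those of all distal peaks. TGACTCA was present in 33 of 118 distal peaks, or 28.0% (20.1 to 37.0%), which includes the 26.4% of all distal peaks, and without Sox5 in 18.3%. The SOX core was present in 22 of 118, or 18.6% (12.1 to 26.9%), against 17.6% of all distal peaks, and in 11.0% of the windows to either side, against 14.2%. Distal peaks with and without TGACTCA had median fold enrichments of 6.57 and 6.04 around the members, and of 6.31 and 5.30 over all distal peaks. Among the short genes, 0 of 10 distal peaks around Sox12 held TGACTCA, with an interval of up to 30.8%, and 4 of 11 around Sox9 did.

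The windows around the members were denser in peaks than the genome. The 3.57 Mb in and within 100 kb of the 10 genes held 43.2 peaks per Mb, against 24.0 over chromosomes 1 to 19, X and Y, a ratio of 1.80 (1.53 to 2.11, counting error only). Windows placed at genes are not a random sample of the genome: the median protein-coding gene had 39.7 peaks per Mb in its own window of the same kind. Of the 154 peaks, 26 lay at TSSs of other genes and 109 had a member as the nearest coding TSS. At the 100 kb limit, the outermost peak counted lay 99131 bp from Sox12 (fold enrichment 11.1) and the nearest one not counted lay 103211 bp from Sox10 (2.79).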

How the data were processed

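The parental NIH-3T3 library was measured by ATAC-seq. Paired-end reads were mapped by the authors to mm10 (the processing notes list STAR 2.5.3a, Picard and MACS2 2.1.1.20160309). Unique reads without duplicates were kept, and peaks were called on whole fragments. For peak calling in this library the methods refer to those of ChIP-seq, in which peaks shared with input chromatin or with the ENCODE blacklist were removed, and no filter is named for ATAC-seq itself. Each deposited peak has a score, a fold enrichment (a ratio), and its p and q as −log10. The lowest deposited −log10 q was 1.30. The deposited summit position is an offset from the peak start.

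Genes and TSSs came from GENCODE M21 (mm10), in coordinates counted from 1, and sequences from the GRCm38.p6 reference and the RefSeq promoter table. A peak was at a TSS when its interval was within 1 kb, and in a gene when it overlapped by at least 1 bp. Fragments at the summit were solved from the fold enrichment and −log10 p, and were within 0.02 of a whole number for 99.997% of peaks. Read depth is not part of the peak list. The solution was tested on simulated data. Motifs were searched on both strands within 50 bp of the summit. For each gene the promoter peaks, the 3 highest other body peaks, and the nearest and the highest outside peak were named. The genes, gene lists and measures were chosen with earlier results of these data known. The list of SOX10 targets is not reported here. Alternatives changed the peak threshold, distances, transcripts, windows and motifs. The software was pysam 0.24.0, SciPy 1.17.1, pandas 2.3.3 and NumPy 2.4.6 under Python 3.11.15, with figures from matplotlib 3.10.9.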

Additional observations from a re-analysis of the deposited data

How the results depend on the processing

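Of 48 alternative settings over the 7 summary values, 43 left the value within the spread allowed for it and 5 moved it. TGACTCA was present within 250 bp of the summit in 45.8% of distal peaks around the members, and within 50 bp in 18.3% when Sox5 was left out, which was chosen after seeing the data. Over all distal peaks the share within 250 bp was 43.0%. The SOX core was present within 250 bp in 59.3% (57.5% over all distal peaks), and within 50 bp in 11.0% for CTTTGT alone (10.1%) and 7.63% for CATTGT alone (8.25%). The number of genes with a promoter peak was 4 under every alternative run, and that with a gene-body peak was 4 to 6. Peaks within 100 kb numbered 103 to 154. All values in these ranges counted as within the allowed spread. That spread was wide, so that 43 of 48 says little about how stable the values are. The density ratio ranged from 1.80 to 1.93. The ratio of promoter peak heights ranged from 0.682 to 0.787 in fold enrichment or fragments. The same ratio taken on −log10 q, which is not a height, was 0.580. No paired analysis was possible because there was a single sample and nothing to pair it with. The list gives no read depth, and a gene without a peak had no site that passed the authors' threshold, which does not show that its chromatin was closed in all cells.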

Other observations

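Genes that the SOX proteins are known to regulate were counted by tissue. Of 11 cartilage genes known as targets of SOX9, SOX5 and SOX6, 0 had a peak within 1 kb of a TSS, although the median number of peaks within 100 kb was 10, the median of all protein-coding genes. Col2a1 and Acan, which encode the main collagen and proteoglycan of cartilage, were among them. The count depends on the 1 kb limit. The nearest peak was 1210 bp from a TSS at Col9a2, 1765 bp at Col9a3 and 2020 bp at Col2a1. At the other genes of this list it was farther away. The 4 cartilage markers counted above (Col2a1, Acan, Matn1 and Cnmd) all belong to this list, and Cdh5 is in the endothelial list and also an endothelial marker.

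Of 10 endothelial genes known as targets of SOX17 and SOX18, 5 had a promoter peak, with a fold enrichment of 12.8 for Cdh5, the gene of VE-cadherin, 7.98 for Nr2f2, 6.13 for Notch4, 3.94 for Vcam1 and 3.58 for Tek. Cldn5, Dll4, Flt4, Kdr and Prox1 had none. Of 5 genes known as targets of the group C proteins, Tead2 alone had one (fold enrichment 4.34). At Tubb3, which is also a neuronal marker, the nearest peak was 1127 bp from a TSS, just outside the 1 kb limit. Prox1 is in this list and in the endothelial list. Of the 10 other SOX genes (Sox1, Sox2, Sox3, Sox7, Sox13, Sox14, Sox15, Sox21, Sox30 and Sry), Sox13 alone had a promoter peak, with a fold enrichment of 3.34. Over all protein-coding genes the share was 82.0% with a CpG-rich TSS and 24.5% without. The endothelial list had 2 of 6 with and 3 of 4 without, the group C targets 0 of 2 and 1 of 3, the other SOX genes 1 of 8 and 0 of 2, and the cartilage list 0 of 3 and 0 of 8. No list was tested.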
